A study of Sus scrofa with 8 samples.

Results

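The hormone receptors of the testis were examined on porcine arrays: LHCGR, FSHR, PRLR, ESR1, ESR2, PGR and NR3C1, 7 of the 2228 genes that could be named on the array. A probe was taken as a member if its RefSeq accession maps to one of these genes in the pig, or if the study's own list, of probes with a P-value under 0.05 between the diets, gives it that name. This found 8 probes, 1 spot each. The accession named 7 of them, and the list named the second PRLR probe. Total RNA from the testis of 8 F0 Large White boars was labelled with Cy3 and hybridized, 1 array per boar. In the group on the supplemented diet, m_9597, m_9599, m_9499 and m_9527 received a standard diet with added methionine, choline, betaine, vitamin B6, vitamin B12 and folate, while m_9598, m_9600, m_9502 and m_9528, on the control diet, received the standard diet alone, all of them from month 1 to month 10 of age. The boars m_9597 to m_9600 are a litter of 4 full brothers and shared slide 1, and the other 4 boars shared slide 2, which means that litter and slide cannot be told apart. The 8 boars came from 3 litters by 2 sires, with diets assigned inside each litter, so slide 2 held related boars too, but how its 4 boars divide into litters is not given in the sources used here. Both diets were on each slide, supplemented boars always at places 1 and 3 and control boars at 2 and 4, and for this reason the effects of diet and of place cannot be told apart either.

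Luteinizing hormone and follicle-stimulating hormone from the pituitary reach the testis through receptors at the cell surface. LHCGR sits on Leydig cells, where it drives androgen synthesis, and FSHR sits on Sertoli cells, which nurse the germ cells. Both signal through the stimulatory G protein and cyclic AMP, whereas the prolactin receptor PRLR signals through JAK2 and STAT5. ESR1 and ESR2 (estrogen receptors alpha and beta), PGR (progesterone receptor) and NR3C1 (glucocorticoid receptor) are transcription factors that are switched on by their steroid. Boar Leydig cells are known for making large amounts of estrogen.

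The RNA carried markers of the testis. The Leydig cell hormone INSL3 lay 11880 to 16220 times above local background, and the sperm protamines PRM1 and PRM2 reached at least 10320 times. STAR, which carries cholesterol into the mitochondria of Leydig cells, varied from 37.2 to 862 times. EPCAM, listed here as a marker of duct epithelium, varied from 22.4 to 452 times (probe A_72_P146646). The median spot signal of the arrays lay between 108 and 192.5, and no spot was saturated. The flag for a signal well above background was set for 76.3% to 79.6% of all spots on the supplemented arrays. On the control arrays it was set for 77.3% to 86.5%, and all control boars but m_9502 lay above every supplemented boar. Boar m_9502 stood apart in the comparison of the diets: the number of probes below 0.05 in limma, before adjustment, was 689 of 36982 with all boars and 6155 without this one. Precision is limited by the number of arrays, and because the testis is a mixture of cells, fewer cells of a type and less RNA per cell cannot be told apart.

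Of the 8 probes, 6 were present, which means a signal above 25 and the scanner software's flag for a spot well above background in at least 2 of the 4 boars of a diet. The present probes stood for 6 genes. Spot signal over local background was 28.5 to 146 for LHCGR, 34.1 to 80.0 for FSHR, 16.5 to 30.2 for NR3C1 and 5.62 to 23.2 for PGR, and these 4 probes were well above background in all 8 boars. ESR1 and the second PRLR probe lay nearer to background. ESR1 reached 1.31 to 4.48 times and was well above background in 7 boars, all but m_9527. The second PRLR probe reached 1.46 to 6.17 times and was well above background in 7 boars, all but m_9502. The ESR2 probe A_72_P035406 (1.19 to 1.61 times) and the first PRLR probe A_72_P077336 (1.11 to 1.80 times) were not well above background on any array, so no fold is given for them. These ratios describe each probe by itself, since probes differ in how well they bind.

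**Figure D1:**
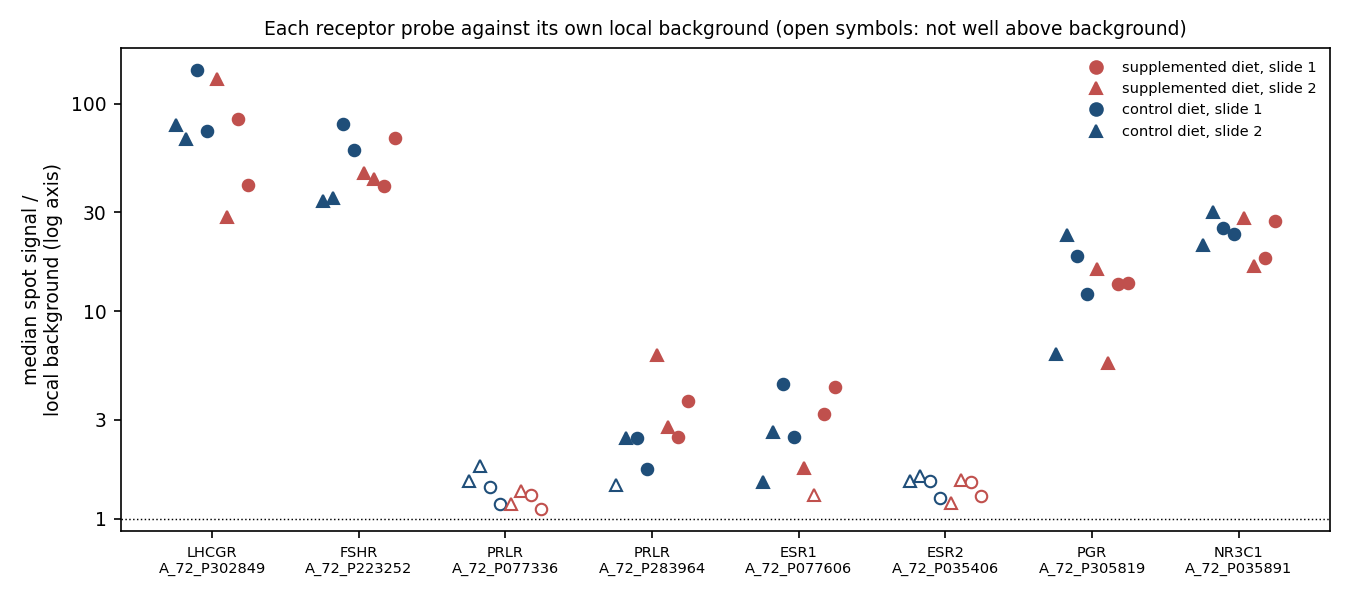
Median spot signal over local background (log axis) of the 8 receptor probes, with 1 symbol per boar, coloured by diet and shaped by slide; open symbols were not well above background. LHCGR, FSHR, PGR and NR3C1 are well above background in all 8 boars, and ESR2 and PRLR probe A_72_P077336 in none.

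The sequence of the second PRLR probe is shown because the PRLR probes disagreed on whether the gene was detected, and its name rests on the study's list alone. It is the probe's own sequence of 60 bases, of which 35.0% are G or C, as the list gives it.
PRLR A_72_P283964: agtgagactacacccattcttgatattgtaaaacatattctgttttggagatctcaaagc

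No receptor named by its accession passed the test between the diets. Among their 5 present probes, 0 had a limma P-value under 0.05, beside 1.86% of all 36982 present probes. After Benjamini-Hochberg adjustment over all present probes, 0 receptor probes and 0% of all probes were under 0.05. The boars of the diets overlapped in all 6 present receptor probes. Over all present probes, 1.13% had every boar of one diet above every boar of the other. At that share, overlap in all 6 is near the background. With 4 boars against 4, the smallest two-sided P that an exact permutation test can give is 0.0286. The test exchanged the boars freely across slides and litters, although the diets were assigned inside litters.

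LHCGR, the luteinizing hormone receptor, varied most among the boars. Its normalized log2 signal on the supplemented diet was 11.03 in m_9597, 9.83 in m_9599, 12.01 in m_9499 and 10.02 in m_9527. On the control diet it was 11.39 in m_9598, 10.96 in m_9600, 11.58 in m_9502 and 10.71 in m_9528. The supplemented boars held both the highest and the lowest value, a span of 2.18 on the log2 scale or 4.52-fold, and the control boars lay between them. The means were 10.72 ± 1.01 (SD, n = 4) and 11.16 ± 0.40 (SD, n = 4), a log2 fold change, supplemented minus control, of -0.44 (SE 0.45, 95% interval -1.44 to 0.56, limma, adjusted P = 0.842; exact permutation P = 0.457). The residual SD of 0.76 was above that of 96.5% of the present probes. The spots of m_9499 and m_9502 for this probe carried an outlier flag, which covers both the signal and the local background. Without those spots the log2 fold change was -0.72 (limma, adjusted P = 0.846). With only m_9499 left out it was -0.86, with a P-value under 0.05 before but not after adjustment (limma, adjusted P = 0.888). It was nearer to 0 in other settings, with -0.14 without m_9599, -0.20 without m_9527 and -0.13 on slide 2 alone, beside -0.74 on slide 1 alone.

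FSHR, the follicle-stimulating hormone receptor, read 9.94, 10.46, 9.83 and 10.46 in the supplemented boars m_9597, m_9599, m_9499 and m_9527, as log2 signal. The control boars m_9598, m_9600, m_9502 and m_9528 read 10.32, 10.47, 10.03 and 9.63. The lowest and the highest boar were both on the control diet. The log2 fold change was 0.06 (SE 0.23, 95% interval -0.46 to 0.58, limma, adjusted P = 0.953). On slide 1 it was -0.20 and on slide 2 it was 0.32, and this difference between the slides had an adjusted P of 1.0 in limma. The upper end of the interval is a 1.49-fold higher signal on the supplemented diet.

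**Figure D2:**
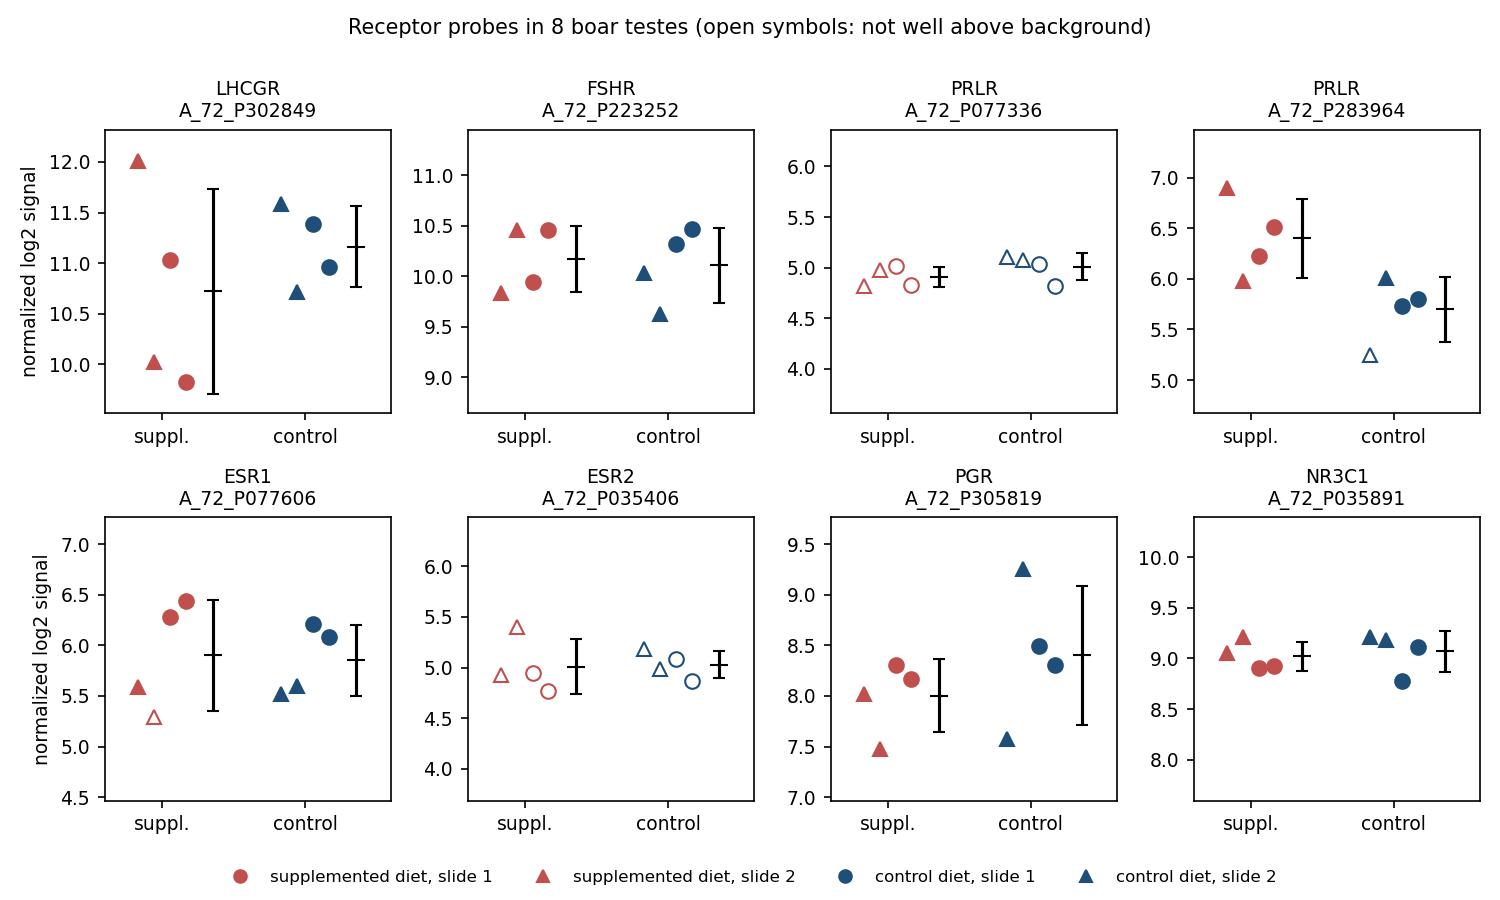
Normalized log2 signal of the 8 receptor probes in each boar, by diet and slide, with the mean ± SD of the 4 boars of a diet in black; every panel spans the same range of log2 signal, around its own centre. LHCGR spreads most, from 9.83 to 12.01, and NR3C1 spreads least of the probes above background in all boars, from 8.78 to 9.21.

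The first PRLR probe stayed at background, and the second read 6.23 in m_9597, 6.51 in m_9599, 6.90 in m_9499 and 5.98 in m_9527. In the control boars it read 5.73 in m_9598, 5.80 in m_9600, 5.25 in m_9502 and 6.01 in m_9528. All supplemented boars but m_9527 lay above all control boars. The means were 6.40 ± 0.39 (SD, n = 4) and 5.70 ± 0.32 (SD, n = 4), a difference of 0.70 (SE 0.23) on the log2 scale, supplemented minus control. Its size depended on the background treatment, from 0.47 with normexp to 1.28 with processed signals, and control boar m_9502 was not well above background. This probe got its name only because the study annotated probes with a P-value under 0.05 between these same boars, so the difference is how it was found and is given with no test. It was 0.60 on slide 1 and 0.81 on slide 2.

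ESR1 followed the slides rather than the diets in these 8 boars. On slide 1 its log2 signal was 6.28 in m_9597, 6.44 in m_9599, 6.21 in m_9598 and 6.08 in m_9600. On slide 2 it was 5.59 in m_9499, 5.29 in m_9527, 5.52 in m_9502 and 5.60 in m_9528. All 4 brothers on slide 1 lay above all 4 boars on slide 2, on both diets. The difference, slide 1 minus slide 2, was 0.76 (SE 0.14) on the log2 scale (limma P = 0.000746, adjusted P = 0.450; two-sided exact permutation P = 0.0286, the smallest it can give). Each side was 1 slide, and the boars of slide 1 were brothers. These P-values count related boars as independent and do not measure the spread between litters or slides. This comparison was chosen after the values were seen. Between the slides, 8.11% of all present probes were below 0.05 in limma before adjustment and 0% after it, and 6.18% had slides that did not overlap. ESR1 was 1 of 6 receptor probes looked at in this way, and the slides overlapped in the other 5. The difference ranged from 0.49 with normexp background correction to 1.59 with background-subtracted signals. Between the diets the log2 fold change was 0.05 (SE 0.28, 95% interval -0.59 to 0.69, limma, adjusted P = 0.968).

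PGR, the progesterone receptor, read 8.31, 8.17, 8.02 and 7.48 in the supplemented boars m_9597, m_9599, m_9499 and m_9527. The control boars m_9598, m_9600, m_9502 and m_9528 read 8.49, 8.31, 7.57 and 9.25. The highest boar, m_9528, was a control boar, and the lowest, m_9527 and m_9502, were 1 of each diet, all 3 on slide 2. The log2 fold change was -0.41 (SE 0.33, 95% interval -1.15 to 0.34, limma, adjusted P = 0.840; exact permutation P = 0.343), and it was -0.12 without m_9528, -0.23 without m_9527, -0.16 on slide 1 and -0.65 on slide 2. Without m_9502 it was -0.68, with a P-value under 0.05 before but not after adjustment (limma, adjusted P = 0.284), in the fit in which 6155 of all probes had a P-value under 0.05.

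NR3C1, the glucocorticoid receptor, was the steadiest of the present receptors. The supplemented boars m_9597, m_9599, m_9499 and m_9527 read 8.91, 8.93, 9.05 and 9.21. The control boars m_9598, m_9600, m_9502 and m_9528 read 8.78, 9.11, 9.21 and 9.18. The boars of both diets covered nearly the same range, with a residual SD of 0.17, above that of only 15.6% of the present probes. The log2 fold change was -0.05 (SE 0.15, 95% interval -0.39 to 0.29, limma, adjusted P = 0.937; exact permutation P = 0.686).

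**Figure D3:**
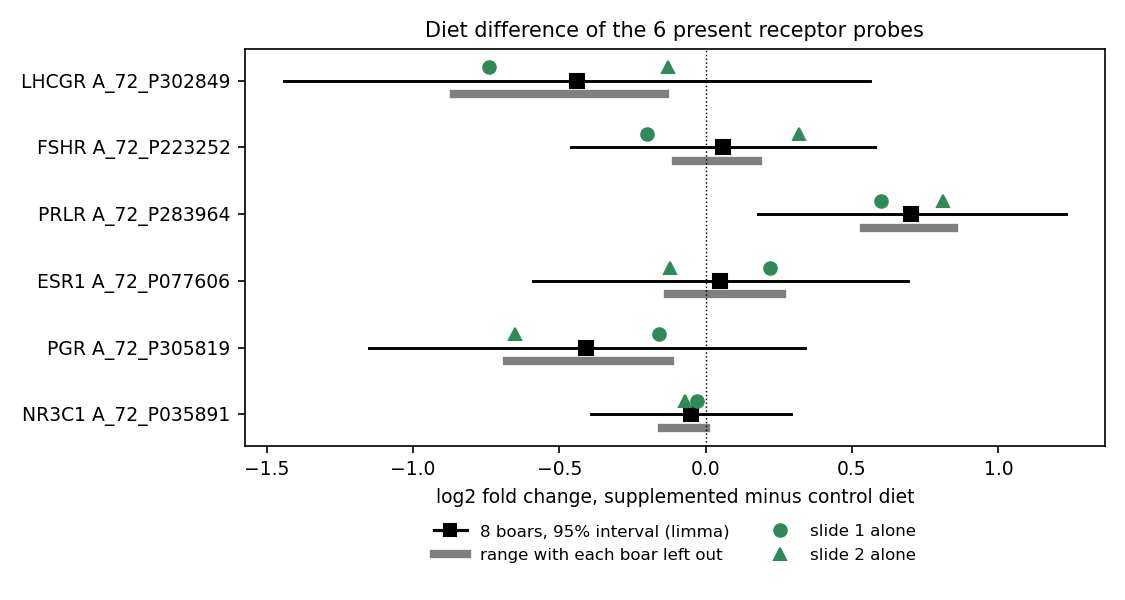
Log2 fold change, supplemented minus control diet, of the 6 present receptor probes with the 95% interval of limma (black), the range with each boar left out (grey) and the values of each slide alone (green). The intervals of the 5 probes named by accession include 0. PRLR probe A_72_P283964 (0.70) was named because of its P-value on these boars, so its drawn interval is a description and no test.

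The genes around these receptors are given by the same limit, a P-value under 0.05, which 1.86% of all present probes reached. At that share, 0 or 1 call in a short list is near the background. Of the pituitary ligands, 6 probes of 4 genes were present and 0 had a P-value under 0.05; the 2 LHB probes, for the beta subunit of luteinizing hormone, were well above background in all 8 boars, whereas CGA, the shared alpha subunit, reached at most 1.92 times background. Of 22 other hormone and nuclear receptors, 11 had a named probe, and 13 probes of 10 genes were present. Of these probes 1 had a P-value under 0.05, PAQR7, a progestin receptor of the cell membrane. PAQR7 lay between 12.78 and 13.62 on the supplemented and between 11.73 and 13.04 on the control diet, so that the diets overlapped, with a log2 fold change of 0.74 (SE 0.31, limma, adjusted P = 0.840).

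Downstream of LHCGR and FSHR, 9 of 33 listed genes of G protein and cyclic AMP signalling had a named probe. All 13 probes of these 9 genes were present. The other listed genes had no probe that could be named, so their level is not known here. The 2 probes with a P-value under 0.05 were both in the study's list, which was chosen by P-value on these boars, so their values are a description. GNAS encodes the stimulatory G protein subunit, and its probe A_72_P348513 differed by 0.86 on the log2 scale, while the other 4 GNAS probes gave -0.24 to 0.35. PDE7B, which breaks down cyclic AMP, differed by -0.55. Among the 13 signalling genes of PRLR, which include JAK2, STAT5A and STAT5B, 7 had a named probe. Their 12 probes were present and 0 had a P-value under 0.05. Among 19 steroid receptor chaperones and coregulators, 6 had a named probe, and this was 0 of 14 present probes. Among 8 glucocorticoid response genes, 2 had a named probe, and it was 0 of 4 present probes. The median log2 fold changes of these 6 lists lay between -0.14 and 0.20, beside 0.0 over all present probes. Of the present probes that carry a gene name, 9.60% had a P-value under 0.05, but 1.07% of those outside the study's list.

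LHCGR was set against the Leydig cells and FSHR against the Sertoli cells, each by the mean of the present marker probes of that cell type, centred on each probe's mean. LHCGR and the 14 Leydig cell probes had a Pearson r of 0.73 over the 8 boars (exact permutation P = 0.0392, 0.0784 after adjustment over the 2 relations) and a Spearman rho of 0.62 (exact permutation P = 0.115, adjusted 0.230). The relation rested on m_9499, highest in both, and m_9527, lowest in the markers and second lowest in LHCGR, since r was 0.32 without these boars. Within slide 1 r was 0.78 and within slide 2 it was 0.76, but it was 0.90 within the supplemented and -0.79 within the control diet, with 4 boars in each. FSHR and the 10 Sertoli cell probes had r of 0.25 (exact permutation P = 0.514, adjusted 0.514) and rho of 0.05 (exact permutation P = 0.935, adjusted 0.935), and r was -0.44 without m_9499 and m_9502. Within the slides it was -0.21 and -0.08.

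That PGR ran parallel to germ cell genes was noticed in the values by boar. Each of the 6 present receptor probes was then set against each of 7 lists of cell markers, 42 relations in all, and 1 of them, the one noticed beforehand, was under 0.05 after adjustment. PGR and the mean of 7 germ cell probes had r of 0.98 (exact permutation P = 2.48e-05, adjusted 0.00104) and rho of 1.0 (exact permutation P = 4.96e-05, adjusted 0.00208), both the smallest P these permutations can give. It was 0.96 without m_9527 and m_9528, 0.88 within slide 1 and 0.98 within slide 2. This held only after quantile normalization, with or without normexp background correction. With the processed signals of every array scaled to its 75th percentile, r was 0.33 (exact permutation P = 0.434), and with the median signals scaled in that way it was 0.52 (exact permutation P = 0.187). The PGR values barely moved between the scalings, whereas the germ cell mean changed sign in m_9598, m_9600 and m_9502 under both. Single germ cell markers ranged from r of 0.95 for PGK2, a glycolytic enzyme of sperm, to 0.30 for ODF1, a protein of the sperm tail.

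**Figure D4:**
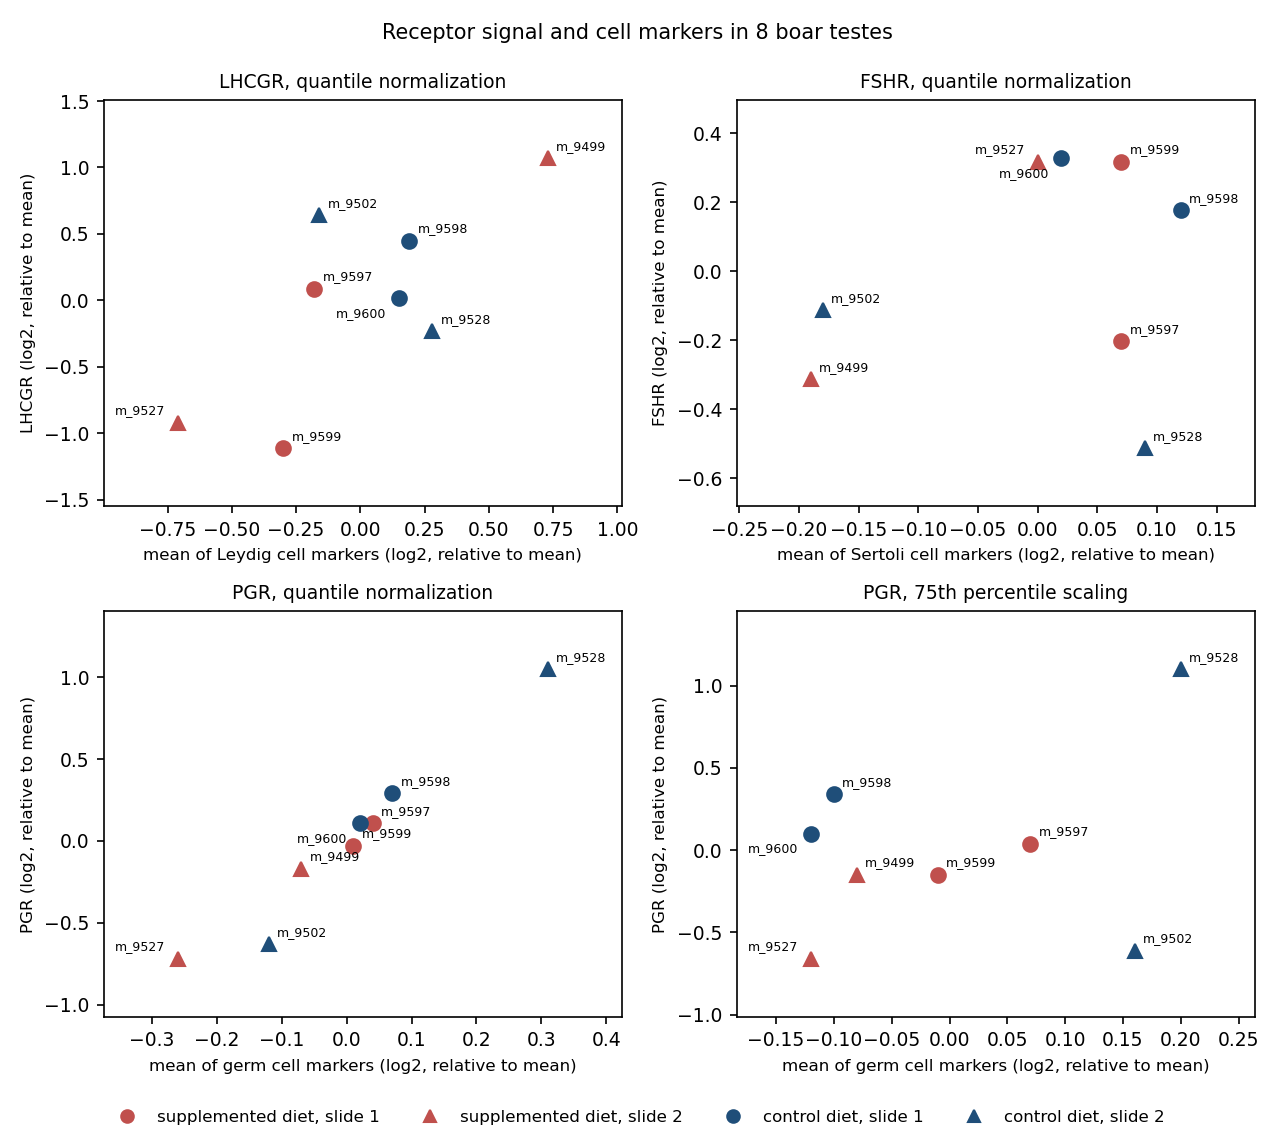
Log2 signal of LHCGR, FSHR and PGR against the mean of Leydig, Sertoli and germ cell marker probes, 1 symbol per boar, all relative to the mean of the 8 boars. The PGR panels hold the same boars after quantile normalization (r 0.98) and with processed signals scaled to the 75th percentile (r 0.33), where m_9502 lies far to the right.

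The named genes with the most similar pattern were ranked by Pearson r over the 8 boars among 2917 named probes, as a description with no test. For LHCGR they were the complement component C5 (0.95), CYP17A1 (0.89), an androgen synthesis enzyme that is also in the Leydig cell list, and CAPNS1 (0.88), the small calpain subunit. For FSHR they were DIRAS3 (0.91), CLEC7A (0.91) and S100A11 (0.90). For the second PRLR probe they were KY (0.95), GNAS probe A_72_P146781 (0.93) and GPR176 (0.92). Their log2 fold changes between the diets were 0.37, 0.35 and 0.29, in the direction of the difference by which this PRLR probe was chosen. Without the 2 boars farthest from the median of the PRLR probe, r was 0.91, 0.94 and 0.69. For ESR1 they were the chromatin protein HMGB2 (0.97), LOC641352 (0.97) and the arginine methyltransferase PRMT5 (0.94). For PGR they were ARFGEF1 (0.99), MED7 (0.99) and CRISP2 (0.98), a protein of sperm, and for NR3C1 they were CSTB (0.94), ZBTB22 (0.92) and SLC17A1 (0.91). All these points share the 8 arrays and their normalization. Between the receptors themselves, r ranged from -0.81 for ESR1 with NR3C1 to 0.33 for ESR1 with PGR. Slide 1 minus slide 2 was 0.76 for ESR1 and -0.23 for NR3C1 on the log2 scale. For NR3C1 the slides overlapped (limma, adjusted P = 0.661, exact permutation P = 0.0571). These P-values, too, count related boars as independent. The part of the slides in the r of this pair was not tested.

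Other cell markers were compared between the diets as well, and their part in the receptor values was not tested. Of the duct epithelium list 5 of 5 probes, of 2 genes, were lower on the supplemented diet. Their median log2 fold change was -0.95, but 0 had a P-value under 0.05. The size came from EPCAM, with -0.95, -1.19 and -1.15, while the CDH1 probes gave -0.18 and -0.15. CDH1 probe A_72_P164631 was well above background in only 2 boars. The mean of the list ranged from -1.17 to 0.58 on the supplemented and from -0.63 to 0.96 on the control diet. No probe of the Leydig, Sertoli, germ, peritubular, macrophage or endothelium lists had a P-value under 0.05. Of the Leydig cell probes 12 of 14, of 7 genes, were lower on the supplemented diet, with a median log2 fold change of -0.16. The list mean of the Leydig cells ranged from -0.71 to 0.73 on the supplemented and from -0.16 to 0.28 on the control diet. The red blood cell list had no named probe.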

How the data were processed

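Testis RNA of 8 boars was measured with a single dye on porcine Agilent arrays. The authors deposited the spot intensity of each array as Feature Extraction 10.5.1.1 wrote it, per the file headers, without normalization between arrays. They also deposited quantile-normalized log2 values, used as an alternative. Here, log2 median signals of the spots that are not controls were quantile-normalized without background subtraction, which understates changes of dim probes. The diets were compared over the 36982 present probes with limma 3.58.1 (two-sided) in R 4.3.3, adjusting P-values by Benjamini-Hochberg. Exact permutation tests were written out in Python 3.11.15, with ranks from scipy 1.17.1, and figures were drawn with matplotlib 3.10.9. The code was tested on simulated data.

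The RefSeq gene table named 2628 probes and was used for names only. The study's list named 480, and its name was kept where both gave one. The authors' P-values and fold changes in it were not used. The rule for named genes took all probes of the 7 receptors, each probe of the pathway lists with a P-value under 0.05, and the 3 named genes most similar to each receptor. LHB, CGA and the other GNAS probes, the single germ cell markers, EPCAM, CDH1 and the tissue markers were added after their values were seen. Members and lists were chosen with earlier results of these data known. Alternatives were other signals, scalings, filters, tests, weights, the slide as a block, each slide alone and each boar left out. The differences of ESR1 and NR3C1 between the slides and the 42 marker relations were added after seeing the data.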

Additional observations from a re-analysis of the deposited data

Results flagged for a closer look

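Among 26 groups of 4 boars (the present receptor probes and the marker lists, by diet), 1 held a boar far from the other 3 by Dixon's criterion, which chance alone flags in about 1 in 20 groups, or 1.3 of these 26. The macrophage marker mean of control boar m_9600 was 0.70 on the log2 scale, relative to the mean of the 8 boars, and its gap to the next boar was 0.887 of the range of the group. No receptor probe was marked in this way.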

How the results depend on the processing

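Adjusted P-values of the 5 present receptor probes named by accession stayed over 0.05 in all 21 alternatives, the slide as a block included. LHCGR ranged from -0.86 to -0.13 and PGR from -0.68 to -0.12. The small differences turned in sign: ESR1 was -0.16 with processed signals and -0.12 on slide 2 alone, and -0.13 to 0.26 with each boar left out, below 0 without m_9502, m_9528, m_9597 or m_9599; FSHR was -0.12 with array weights and -0.20 on slide 1 alone, and -0.10 to 0.18 with each boar left out, below 0 without m_9528, m_9599 or m_9527; NR3C1 was 0.03 with array weights. The cause was not tested. Of the receptor probes named by accession, 0 had a P-value under 0.05 with all boars, 1 without m_9502 (PGR, beside 6155 of all 36982 probes) and 1 without m_9499 (LHCGR, beside 751). The listed PRLR probe was chosen by its P-value on these boars, so counting it says nothing about the receptors: with it, the count was 1 with all boars, 0 on slide 2 alone (359 of all probes) and 1 to 2 with each boar left out. The r of LHCGR with the Leydig cell markers was 0.57 to 0.85 with each boar left out, and its unadjusted P-value was above 0.05 in 6 of these 8. The r of PGR with the germ cell markers fell to 0.33 and 0.52 with scaling to the 75th percentile. The labels give no replicate numbers that pair single boars of the diets, so the slide was the only block fitted. Depth is limited by signal over background for ESR1 and PRLR.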
